A study of Mus musculus with 16 samples.

Results

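Collagens outside the main fibril-forming types build the sheets, beaded filaments and linkers of the matrix, and 35 of the 20992 rows measured in these aortic valves belong to them. They were chosen by name alone, as every collagen gene except those of types I, II, III, V and XI. By role they were 6 type IV genes (basement membrane), 6 type VI genes (beaded microfibrils), 1 type VII gene (anchoring fibrils), 3 short-chain network genes (types VIII and X), 9 fibril-associated genes, 4 transmembrane genes, 2 multiplexins and 4 others. The name rule also kept Col24a1 and Col27a1, which are classed as fibrillar collagens, so "non-fibrillar" does not describe those 2.

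RNA came from aortic valves of C57BL/6J mice in 4 groups. HC mice are ApoE knockouts, a model of hypercholesterolaemia (4 libraries, 3 female and 1 male). HT mice carry transgenes for human renin and human angiotensinogen, a model of hypertension (4 libraries, 2 female and 2 male). HC/HT mice carry both (3 libraries used here, 2 female and 1 male), and CON mice are the controls (4 libraries, 1 female and 3 male). Age and the promoters of the transgenes are not given in the sources used here. Levels are the authors' normalised counts, multiplied by a single factor so that the median library sums to 1000000, and are called units.

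A collagen molecule is a trimer, and in some of the types described here different chains assemble in set combinations. Type IV chains form the network of the basement membrane under endothelium and around muscle, where Col4a1 with Col4a2 make the widespread form and Col4a3 to Col4a6 make the forms of specialised membranes. Type VI makes beaded filaments around cells, with Col6a1 and Col6a2 joined by Col6a3 or by one of its relatives Col6a4, Col6a5 and Col6a6. Type VIII makes hexagonal sheets in vessel walls and in the cornea, and the multiplexins XV and XVIII sit at basement membranes. Types XII and XIV lie on the surface of fibrils.

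Of the 35 genes, 27 reached 1 unit in at least 4 libraries and were tested. The 8 below that level were Col6a4, Col9a2, Col13a1, Col19a1, Col22a1, Col24a1, Col26a1 and Col28a1. Col19a1 reached 5.68 units in CON replicate 3, and the highest value of any other of the 8 was 1.27 units. Per kilobase of the principal transcript, type VI genes stood highest in control valves, with Col6a2 at 42.0 ± 11.4, Col6a1 at 28.1 ± 9.02 and Col6a3 at 20.9 ± 5.05 units per kb (mean ± SD, n = 4). Next came Col4a1 (16.1 ± 5.71), Col14a1 (14.2 ± 5.34), Col4a2 (12.4 ± 3.07), Col12a1 (12.0 ± 5.26), Col15a1 (8.59 ± 2.08), Col4a5 (7.03 ± 1.05) and Col8a1 (6.33 ± 1.93), each as units per kb in CON. Col6a2 stood above Col6a1 by more than the SD of either, and from Col6a1 down to Col8a1 each neighbouring pair of means differed by less than the larger of their SDs. As medians over all 15 libraries, the principal transcript gave 31.7 units per kb for Col6a2, 25.6 for Col6a1, 19.4 for Col6a3 and 17.8 for Col4a1. Counted per kilobase of all annotated exons instead, those medians were 23.9 for Col6a1, 15.8 for Col4a1, 15.0 for Col6a2 and 14.6 for Col6a3. The order among these type VI genes and Col4a1 therefore depends on the length used.

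**Figure D1:**
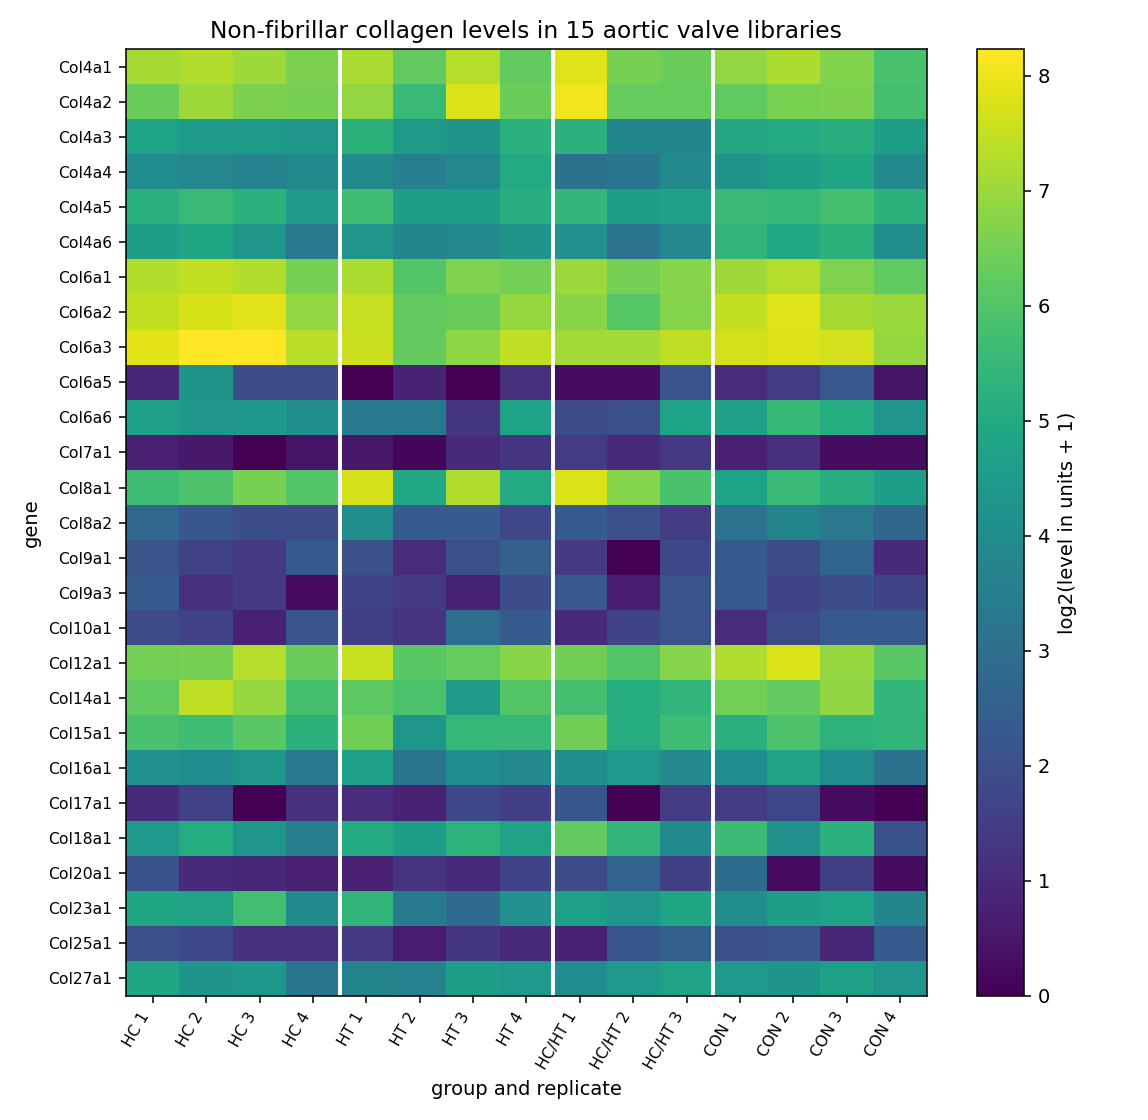
Heat map of the log2 level (units + 1) of the 27 collagen genes tested, in gene order down the page, across the 15 libraries grouped as HC, HT, HC/HT and CON. Type IV chains Col4a1 and Col4a2, type VI chains Col6a1 to Col6a3, Col8a1, Col12a1 and Col14a1 form the bright rows. Col7a1, Col6a5 and Col17a1 are low in most libraries, although Col6a5 reaches 18.1 units in HC replicate 2 and Col17a1 reaches 3.72 units in HC/HT replicate 1.

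The libraries differ in ways that touch every result. In each, 4 rows, among them the ribosomal RNA precursor RN45S, held between 32.4% and 62.7% of the total, up to 54.1% in HC, 62.7% in HT, 54.3% in HC/HT and 57.8% in CON libraries. All libraries were deposited at nearly equal totals, and median-of-ratios factors ran from 0.636 to 1.34. The median fitted log2 difference of all 15004 genes tested was -0.02 in HC, -0.42 in HT and -0.20 in HC/HT, each against CON, and -0.01, -0.01 and -0.02 with those factors. Differences below are read against these shifts. Apoe lay between 2.15 and 12.3 units in the 7 knockout libraries and between 56.6 and 1014 units in the 8 others. The 3 libraries that correlated least with the rest were replicates 2 and 3 of HT and replicate 2 of HC/HT. Summed valve interstitial and fibroblast markers (10 of 10 with values) ranged from 5215 to 14677 units in HC, 4425 to 12096 in HT, 5036 to 7739 in HC/HT and 6222 to 16428 in CON. Endothelial markers (10 of 10) ranged from 823 to 1204 units in HC, 578 to 1087 in HT, 784 to 1185 in HC/HT and 752 to 1274 in CON. Smooth muscle markers (8 of 8) ranged from 108 to 641 units in HC, 135 to 1320 in HT, 83.7 to 142 in HC/HT and 295 to 2766 in CON.

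The sequences at the starts of the genes that carry the main results are shown first, from RefSeq on GRCm38.p6. Type IV genes lie in head-to-head pairs, and the annotated first bases of Col4a1 (reverse strand) and Col4a2 (forward strand) overlap by 22 bases at chr8:11312805-11312826, read on the forward strand:
Col4a1 and Col4a2 overlap: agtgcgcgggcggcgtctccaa
Col4a4 (reverse strand, start from RefSeq) and Col4a3 (forward strand, start from GENCODE M21) are separated by 71 bases at chr1:82586850-82586920, read on the strand of Col4a4:
Between Col4a4 and Col4a3: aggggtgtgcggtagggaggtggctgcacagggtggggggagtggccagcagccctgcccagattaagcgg
Col4a6 and Col4a5 on chromosome X have 1342 bases between their starts. The type VIII genes lie on separate chromosomes. The 250 bases before the start of Col8a1, chr16:57754738-57754987 on the reverse strand, and before the start of Col8a2, chr4:126286544-126286793 on the forward strand, are these, with matches to GGGCGG on either strand in capitals:
Col8a1 upstream: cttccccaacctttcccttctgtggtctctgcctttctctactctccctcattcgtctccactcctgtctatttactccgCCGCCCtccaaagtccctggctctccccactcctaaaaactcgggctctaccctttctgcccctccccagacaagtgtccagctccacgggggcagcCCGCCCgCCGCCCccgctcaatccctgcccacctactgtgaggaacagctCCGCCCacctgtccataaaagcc
Col8a2 upstream: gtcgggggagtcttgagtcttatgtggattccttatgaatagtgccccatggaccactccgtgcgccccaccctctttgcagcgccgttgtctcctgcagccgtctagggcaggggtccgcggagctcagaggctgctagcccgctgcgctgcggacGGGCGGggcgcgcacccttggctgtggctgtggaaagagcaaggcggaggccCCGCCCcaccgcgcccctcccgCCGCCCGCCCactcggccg
Each of the 2 stretches holds 4 matches to GGGCGG, of which 2 overlap in Col8a2. On either strand, 32.7% of the 32851 promoter windows of 250 bases hold GGGCGG, and among the 29 collagen genes of this set with such a window, 16 do. No match to CCAAT (33.8% of all windows), TGANTCA (6.75%) or TATAAA (12.4%) lies in either type VIII stretch or between Col4a4 and Col4a3. These matches describe letters only.

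Over the whole set, none of the 27 genes passed an adjusted p under 0.05 in any of the 8 comparisons (limma over 15004 genes, with group and sex in 1 fit). The background was 0.167% of all genes called in HC, 0% in HT and 0.467% in HC/HT, each set against CON. It was 0% in HC/HT against HC, 0.373% in HC/HT against HT, 1.47% for the knockout average, 0.0133% for the hypertension average and 0% for the interaction. At an unadjusted p under 0.05 there was 1 member in HC (4.01% of all genes), 2 in HT (12.8%) and 7 in HC/HT (11.4%), each against CON. In HC/HT there were 4 against HC (4.41%) and 0 against HT (8.71%). The knockout average had 2 (9.84%), the hypertension average 7 (16.7%) and the interaction 0 (1.38%). Groups did not overlap in 1 member in HC against CON (Col8a1, background 4.57%), 0 in HT (4.21%), and 3 in HC/HT (Col8a1, Col8a2 and Col6a2, background 10.6%). In HC/HT against HC such members were Col6a2, Col14a1 and Col7a1 (background 5.55%), and against HT there were 0 (6.17%). Col7a1 reached 1 unit in only 4 libraries, the fewest the filter allows, and HC/HT replicates 1 and 3 were among them.

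The 3 HC/HT libraries lay above all CON libraries for one chain of type VIII collagen and below them for the other, and neither difference passed the test. Col8a1, which encodes the alpha 1 chain (chromosome 16, 57624258 to 57754737), stood at 50.2, 60.5, 91.3 and 64.8 units in HC libraries 1 to 4. In HT libraries it stood at 208, 29.5, 151 and 32.03 units, and in HC/HT libraries at 217, 104 and 56.8 units. CON libraries held 26.3, 45.5, 33.9 and 23.5 units. Every HC and HC/HT library was above every CON library, while HT libraries split, with replicates 1 and 3 far above CON and replicates 2 and 4 inside the CON range. The fitted log2 difference was 1.06 ± 0.66 (SE) in HC against CON (adjusted p 1.00), 1.23 ± 0.62 in HT (adjusted p 0.403) and 1.79 ± 0.69 in HC/HT (adjusted p 0.353), so none passed. In bulk tissue, fewer cells of a type and less RNA per cell cannot be told apart, here and in all that follows.

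Col8a2, the alpha 2 chain of the same sheets (chromosome 4, 126286793 to 126314330), was lower in HC/HT than in CON. It stood at 5.98, 3.72, 2.94 and 2.74 units in HC, at 15.3, 4.31, 4.11 and 2.35 units in HT, and at 4.31, 3.04 and 1.76 units in HC/HT. CON libraries held 7.74, 12.0, 8.82 and 5.88 units. The 3 HC/HT libraries were all below CON, in HC only replicate 1 reached the lowest CON value, and HT replicate 1 held the highest value of all 15 libraries. The fitted log2 difference was -1.18 ± 0.46 in HC (adjusted p 0.834), -0.69 ± 0.44 in HT (adjusted p 0.440) and -1.42 ± 0.49 in HC/HT (adjusted p 0.223). Averaged over both knockout groups against their Apoe-intact counterparts, the log2 difference was -0.96 ± 0.34 (adjusted p 0.216, limma).

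Because both chains are read in the same library, their ratio depends little on how the libraries were scaled. The ratio of Col8a1 to Col8a2, each plus 1 unit, was 7.33, 13.0, 23.4 and 17.6 in HC, 12.8, 5.74, 29.7 and 9.86 in HT, and 41.0, 26.0 and 20.9 in HC/HT. In CON it was 3.13, 3.57, 3.55 and 3.56. All 11 libraries of the 3 disease models lay above all 4 control libraries, also those HT libraries whose Col8a1 level was inside the CON range. The mean log2 ratio differed from CON by 2.03 in HC and by 1.81 in HT (exact permutation test, two-sided p 0.0286 each, the smallest that 4 against 4 libraries allow). In HC/HT it differed by 3.03 (exact permutation p 0.0571, the smallest for 3 against 4). Adjusted over the 45 ratio tests made (9 pairs in 5 comparisons) each of these had p 0.257, so the ratio did not pass. Between all knockout libraries and the others the log2 ratio differed by 1.55 (permutation p 0.0140, adjusted 0.257), and between all hypertensive libraries and the others by 1.32 (permutation p 0.0413, adjusted 0.257).

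**Figure D2:**
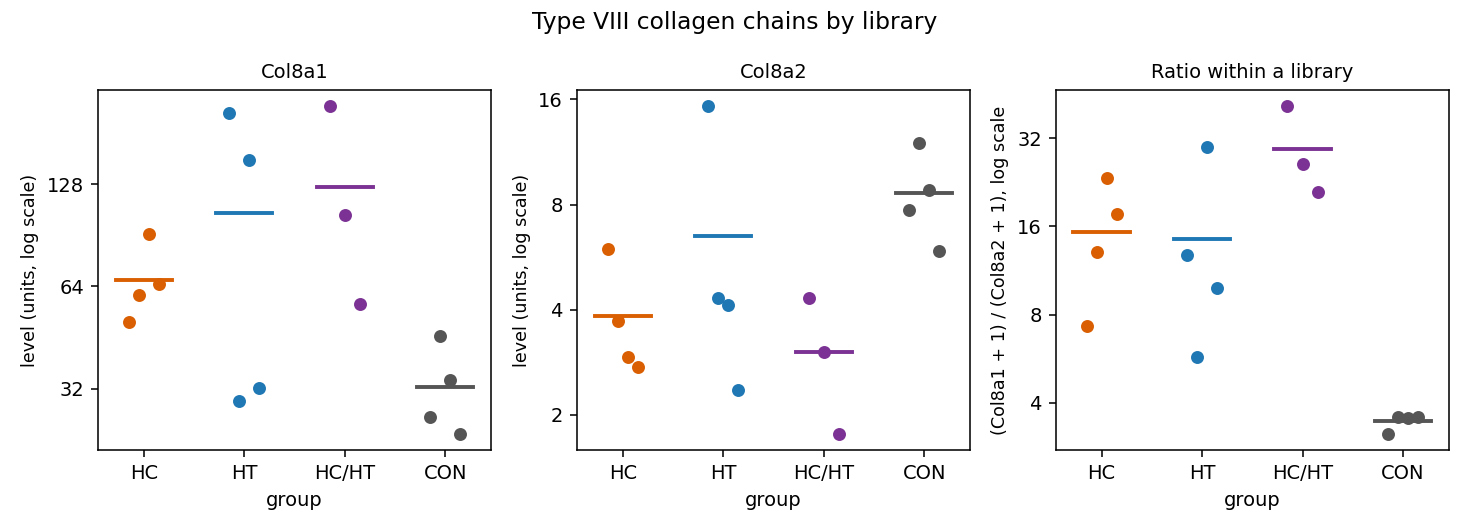
Levels of Col8a1 (left) and Col8a2 (middle) in units, and their ratio within a library (right), each on a log2 axis, for HC, HT, HC/HT and CON. Points are libraries and bars are group means; the ratio is 5.74 or more in every library of the 3 models and 3.57 or less in CON.

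Col10a1, the short-chain collagen of hypertrophic cartilage, was low in every group, at 2.25 ± 1.21 units in HC, 3.60 ± 2.46 in HT, 2.19 ± 1.18 in HC/HT and 2.96 ± 1.39 in CON. Its groups overlapped in every comparison.

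Among type IV genes, Col4a1 and Col4a2 had positive and the other 4 chains negative differences from CON in each model, with no call, but with median-of-ratios factors Col4a3 (0.40) and Col4a4 (0.13) were positive in HT. Col4a2 (chromosome 8, 11312805 to 11449287) stood at 79.9, 130.3, 97.0 and 91.3 units in HC, 117, 47.0, 217 and 82.0 in HT, and 264, 77.0 and 76.7 in HC/HT. CON libraries held 73.3, 94.0, 97.5 and 55.0 units. Groups overlapped throughout, and HT replicate 3 and HC/HT replicate 1 stood far above all other libraries. The fitted log2 difference was 0.67 ± 0.39 in HC (adjusted p 1.00), 0.52 in HT and 0.85 in HC/HT. Col4a1 (chromosome 8, 11198423 to 11312826) averaged 130.0 ± 24.7 units in HC, 114 ± 44.5 in HT, 135 ± 81.7 in HC/HT and 106 ± 37.8 in CON, with its highest values in the same 2 libraries, 159 in HT replicate 3 and 229 in HC/HT replicate 1.

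The chains of specialised membranes had their highest group means in CON on the scale reported, where 13.3% of all genes were positive in HT against CON. With median-of-ratios factors their differences in HT against CON were 0.40 for Col4a3, 0.13 for Col4a4, -0.01 for Col4a5 and -0.33 for Col4a6. In HC and in HC/HT against CON each of these chains stayed negative with those factors. Col4a6 (chromosome X, 141165403 to 141474076) stood at 22.7, 27.9, 19.6 and 9.70 units in HC, 18.4, 12.5, 13.5 and 18.2 in HT, and 16.8, 7.74 and 13.0 in HC/HT. CON libraries held 40.7, 29.6, 38.1 and 15.3 units. Only CON replicate 4 lay inside the ranges of the other groups. Its fitted log2 difference was -0.79 ± 0.37 in HT (adjusted p 0.382) and -1.08 ± 0.41 in HC/HT (adjusted p 0.293), each against CON. Col4a4 (chromosome 1, 82448423 to 82586849) averaged 13.4 ± 1.49 units in HC, 17.5 ± 9.74 in HT, 10.1 ± 3.72 in HC/HT and 21.0 ± 6.16 in CON, and differed by -0.55 ± 0.39 in HC (adjusted p 1.00), -0.97 ± 0.40 in HC/HT (adjusted p 0.354) and -0.65 ± 0.39 in HC/HT against HT (adjusted p 0.666). Over both knockout groups its log2 difference was -0.60 ± 0.28 (adjusted p 0.468). Col4a3 averaged 22.3 ± 3.04 units in HC, 28.8 ± 10.4 in HT, 21.0 ± 14.3 in HC/HT and 30.1 ± 5.00 in CON. Col4a5, which joins both specialised forms, averaged 35.7 ± 10.0 units in HC, 32.8 ± 12.6 in HT, 30.4 ± 10.8 in HC/HT and 46.0 ± 6.84 in CON.

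Set within each library, the balance of the chains was as follows. Col4a1 and Col4a2 summed to 2.17, 2.62, 2.51 and 2.87 times the sum of the other 4 chains in HC, to 2.17, 1.81, 5.47 and 1.29 times in HT, and to 4.71, 3.24 and 2.45 times in HC/HT. In CON the values were 1.41, 1.89, 1.27 and 1.24. HC and HC/HT libraries did not overlap CON in this quotient, which was formed after the values were seen and is given without a test. The log2 ratio of Col4a5 to Col4a1 averaged -1.86 in HC, -1.74 in HT, -2.005 in HC/HT and -1.13 in CON. Its difference from CON was -0.73 in HC (exact permutation p 0.0571, adjusted 0.257), -0.62 in HT (p 0.200, adjusted 0.409) and -0.88 in HC/HT (p 0.114, adjusted 0.333), by exact permutation tests. Over all knockout against all other libraries it was -0.49 (permutation p 0.0830, adjusted 0.293). Summed smooth muscle markers, from cells that also lay down basement membrane, were at 108 to 641 units in HC, 135 to 1320 in HT, 83.7 to 142 in HC/HT and 295 to 2766 in CON. Cardiomyocyte markers (8 of 8 with values) were at 201 to 1226 units in HC, 364 to 11196 in HT, 161 to 325 in HC/HT and 468 to 3134 in CON. For both lists HC and HT overlapped CON, and the part of these markers in the result was not tested.

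**Figure D3:**
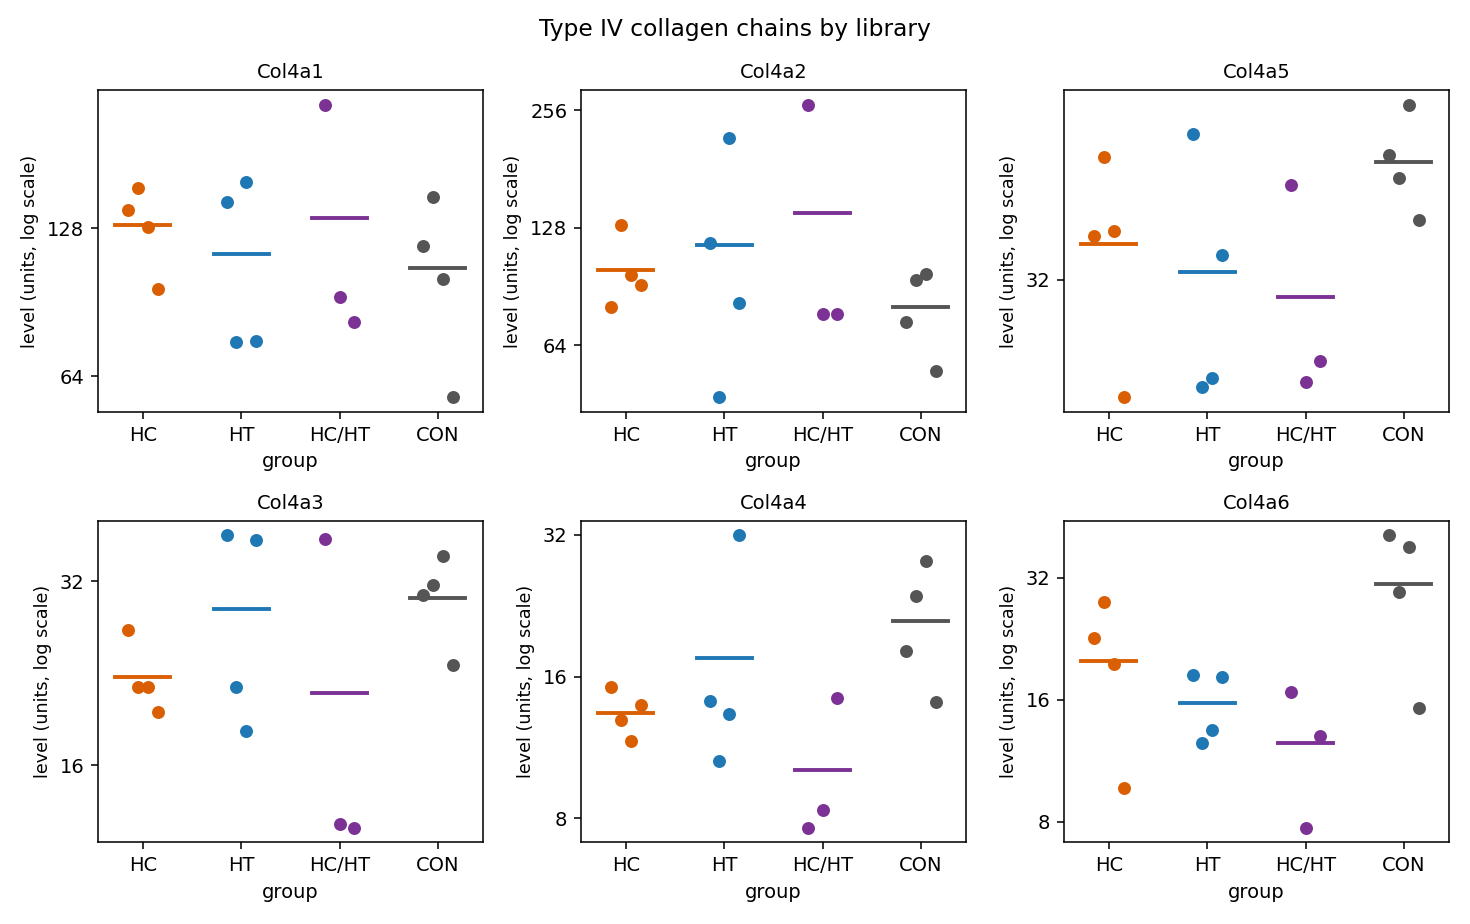
Levels in units, on a log2 axis, of the 6 type IV chains in HC, HT, HC/HT and CON, one point per library with bars for group means. Col4a1 and Col4a2 each have their highest values in HT replicate 3 and HC/HT replicate 1. On this scale the CON mean is the highest of the 4 groups for Col4a3, Col4a4, Col4a5 and Col4a6. With median-of-ratios factors Col4a3 and Col4a4 had positive differences in HT against CON.

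Of the type VI genes, Col6a2 and Col6a6 had negative differences from CON in HT and HC/HT on all 3 scalings tried, with no call, while Col6a1 was negative on the scale reported and positive with median-of-ratios factors (0.27 in HT and 0.14 in HC/HT). Col6a2 (chromosome 10, 76595762 to 76623630) stood at 177, 212, 234 and 119 units in HC, 183, 75.8, 79.0 and 120.2 in HT, and 107, 65.2 and 104 in HC/HT. CON libraries held 175, 226, 137 and 125 units. All 3 HC/HT libraries were below all HC and all CON libraries, while HT replicate 1 lay inside the CON range. The fitted log2 difference was -0.61 ± 0.33 in HT against CON (adjusted p 0.405) and -0.99 ± 0.35 in HC/HT against HC (adjusted p 0.984). Averaged over both hypertensive groups against their normotensive counterparts it was -0.80 ± 0.24, adjusted p 0.143, against a median of -0.30 over all genes. Col6a3 (chromosome 1, 90765923 to 90843971) averaged 249 ± 63.6 units in HC, 138 ± 52.8 in HT, 148 ± 22.3 in HC/HT and 189 ± 45.4 in CON, and its average hypertension difference was -0.60 ± 0.24 (adjusted p 0.231). In the same average 9 of 10 valve interstitial and fibroblast markers were negative, with a median of -0.71. Most genes were negative there too, with a median of -0.30. Of the markers 6 had an unadjusted p under 0.05 (limma), beside 16.7% of all genes, and 0 were called. Their part in the result was not tested. In HC/HT against HC the Col6a3 difference was -0.72 ± 0.35 (adjusted p 0.984). Col6a1 (chromosome 10, 76708792 to 76726168) averaged 145 ± 36.8 units in HC, 100.5 ± 34.9 in HT, 107 ± 18.4 in HC/HT and 115 ± 37.0 in CON.

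Col6a1 and Col6a2, neighbours on chromosome 10 whose chains are needed together in type VI collagen, differed in their ratio between groups without passing the adjusted test. Col6a1 over Col6a2, each plus 1 unit, was 0.876, 0.832, 0.669 and 0.770 in HC, 0.811, 0.851, 1.25 and 0.756 in HT, and 1.18, 1.37 and 1.01 in HC/HT. In CON it was 0.754, 0.700, 0.716 and 0.590. HT and HC/HT libraries lay above CON, while HC overlapped it. The log2 ratio differed from CON by 0.19 in HC (exact permutation p 0.171), 0.39 in HT (exact permutation p 0.0286) and 0.77 in HC/HT (exact permutation p 0.0571). Hypertensive against other libraries it differed by 0.46 (permutation p 0.00622). Adjusted over the 45 tests, the p of HC against CON was 0.409 and those of HT, of HC/HT and of the hypertensive libraries were 0.257.

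Col6a6, a chain that can stand in for Col6a3 (chromosome 9, 105687809 to 105828160), had the most negative difference of the 27 genes among HT and HC/HT differences from CON. It stood at 24.2, 18.5, 19.98 and 16.2 units in HC, 9.40, 9.01, 1.47 and 26.5 in HT, and 2.74, 3.04 and 26.4 in HC/HT. CON libraries held 24.4, 44.6, 33.0 and 18.7 units. HT replicate 4 and HC/HT replicate 3 lay inside the CON range, and the other hypertensive libraries lay at 9.40 units or less. The fitted log2 difference was -1.85 ± 0.68 in HT (adjusted p 0.359) and -2.25 ± 0.75 in HC/HT (adjusted p 0.260), each against CON, and -1.63 ± 0.49 on average over hypertension (adjusted p 0.165). Without HC/HT replicate 3 it passed in HC/HT against CON (log2 difference -3.02, adjusted p 0.0222), and without HT replicate 4 it passed there too (-2.44, adjusted p 0.0436). It passed with no other single library left out. Without HC/HT replicate 1 the difference there was -1.795 (adjusted p 0.518) and without HC/HT replicate 2 it was -1.753 (adjusted p 0.661). Without CON replicate 2 it was -2.165 (adjusted p 0.683). Col6a5, its neighbour on chromosome 9, was at 0.882, 18.1, 2.94 and 2.74 units in HC, 1.18 or less in HT, 0.196, 0.196 and 3.53 in HC/HT and 3.92 or less in CON. Its log2 difference was 1.15 ± 0.66 in HC against CON (adjusted p 1.00), with HC replicate 2 far above the rest, -1.40 ± 0.66 in HC/HT against HC (adjusted p 0.984) and 0.82 ± 0.48 over both knockout groups (adjusted p 0.671).

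**Figure D4:**
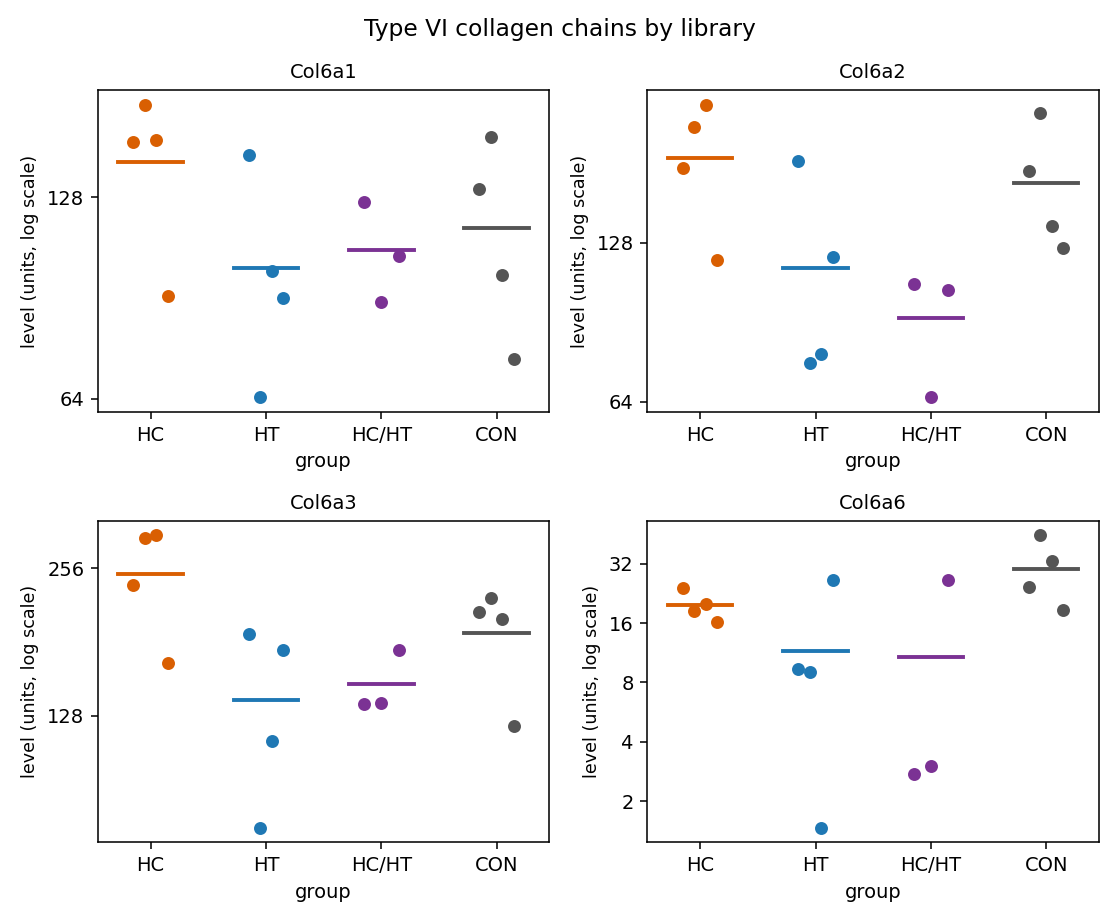
Levels in units, on a log2 axis, of the type VI chains Col6a1, Col6a2, Col6a3 and Col6a6 in HC, HT, HC/HT and CON, with a point per library and bars for group means. Col6a2 in HC/HT lies at 107 units or less, below the lowest HC and CON libraries, and Col6a6 splits the hypertensive libraries, with HT replicate 4 and HC/HT replicate 3 at 26.4 units or more.

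Fibril-associated collagens were led by Col14a1 and Col12a1, which coat fibrils in tendon, skin and valve. Col14a1 (chromosome 15, 55307750 to 55520803) stood at 74.3, 173, 122 and 55.1 units in HC, 71.0, 59.1, 22.3 and 64.7 in HT, and 54.3, 33.3 and 41.5 in HC/HT. CON libraries held 87.9, 75.3, 116 and 42.7 units. HC/HT lay entirely below HC, with a log2 difference of -1.19 ± 0.42 (adjusted p 0.984), and the average hypertension difference was -0.87 ± 0.29 (adjusted p 0.171). Col12a1 averaged 106 ± 35.3 units in HC, 110.1 ± 52.7 in HT, 85.1 ± 21.6 in HC/HT and 139 ± 60.5 in CON. Col16a1 was close to level, at 15.2 ± 4.18 units in HC, 15.2 ± 6.75 in HT, 16.8 ± 3.56 in HC/HT and 16.1 ± 8.02 in CON. Col9a1, Col9a3 and Col20a1 had group means from 1.30 to 3.35 units. Differences of Col9a1 (-0.82 ± 0.50, adjusted p 0.677) and Col20a1 (0.92 ± 0.53, adjusted p 0.650) in HC/HT against HT rest on such low values.

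Multiplexins carry chains of glycosaminoglycan, and the C-terminal part of type XVIII is known as endostatin. Col18a1 (chromosome 10, 77052178 to 77166548) stood at 20.7, 33.5, 19.6 and 10.1 units in HC, 32.2, 23.3, 39.3 and 26.1 in HT, and 75.2, 42.0 and 14.2 in HC/HT. CON libraries held 49.2, 16.9, 37.2 and 3.23 units, a spread that covered nearly all others. Col15a1 was steadier in CON (44.4 ± 10.7 units) but not in HT (48.1 ± 27.7), and stood at 53.3 ± 12.6 units in HC and 56.6 ± 27 in HC/HT. Its highest values, 86.1 and 86.3 units, were in HT replicate 1 and HC/HT replicate 1.

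Of the transmembrane collagens Col23a1 was the most abundant, at 30.0 ± 16.0 units in HC, 18.5 ± 15.8 in HT, 23.8 ± 4.39 in HC/HT and 19.5 ± 6.43 in CON. Col17a1, a hemidesmosome collagen of skin, and Col25a1, known from neurons, had group means from 1.08 to 3.07 units. Col25a1 differed by -0.86 ± 0.43 in HT against CON (adjusted p 0.393), by 0.73 ± 0.46 in HC/HT against HT (adjusted p 0.692), and had the smallest p of the set in the interaction of both factors, 1.19 ± 0.64 (adjusted p 1.00). Col7a1 was at 1.76, 0.980 and 1.57 units in HC/HT, above all HC libraries (0.686 or less), with a log2 difference of 0.80 ± 0.40 (adjusted p 0.984). It passed the filter only with the help of HC/HT, where it was highest, so its place among the genes tested is not independent of that difference. Col27a1, the fibrillar gene kept by the name rule, was at 18.5 ± 8.06 units in HC, 16.8 ± 5.74 in HT, 20.6 ± 5.39 in HC/HT and 20.5 ± 2.87 in CON.

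The median log2 difference of the 27 was -0.0011 in HC, -0.27 in HT and -0.14 in HC/HT, each against CON, beside -0.02, -0.42 and -0.20 over all genes tested. With median-of-ratios factors the HT median was 0.19, beside -0.01 over all genes. For the interaction the median was -0.02 for the set and 0.23 over all genes. Positive differences numbered 13, 7 and 11 of 27 in those comparisons, where 47.3%, 13.3% and 33.2% of all genes were positive. With median-of-ratios factors 10 of the 27 differences in HT changed sign, among them Col4a3, Col4a4 and Col6a1, against 2 in HC and 2 in HC/HT. Col8a1 (1.70), Col4a2 (0.99) and Col18a1 (1.29) were positive and Col6a6 (-1.45), Col4a6 (-0.33) and Col6a2 (-0.14) negative in HT on that scale too.

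**Figure D5:**
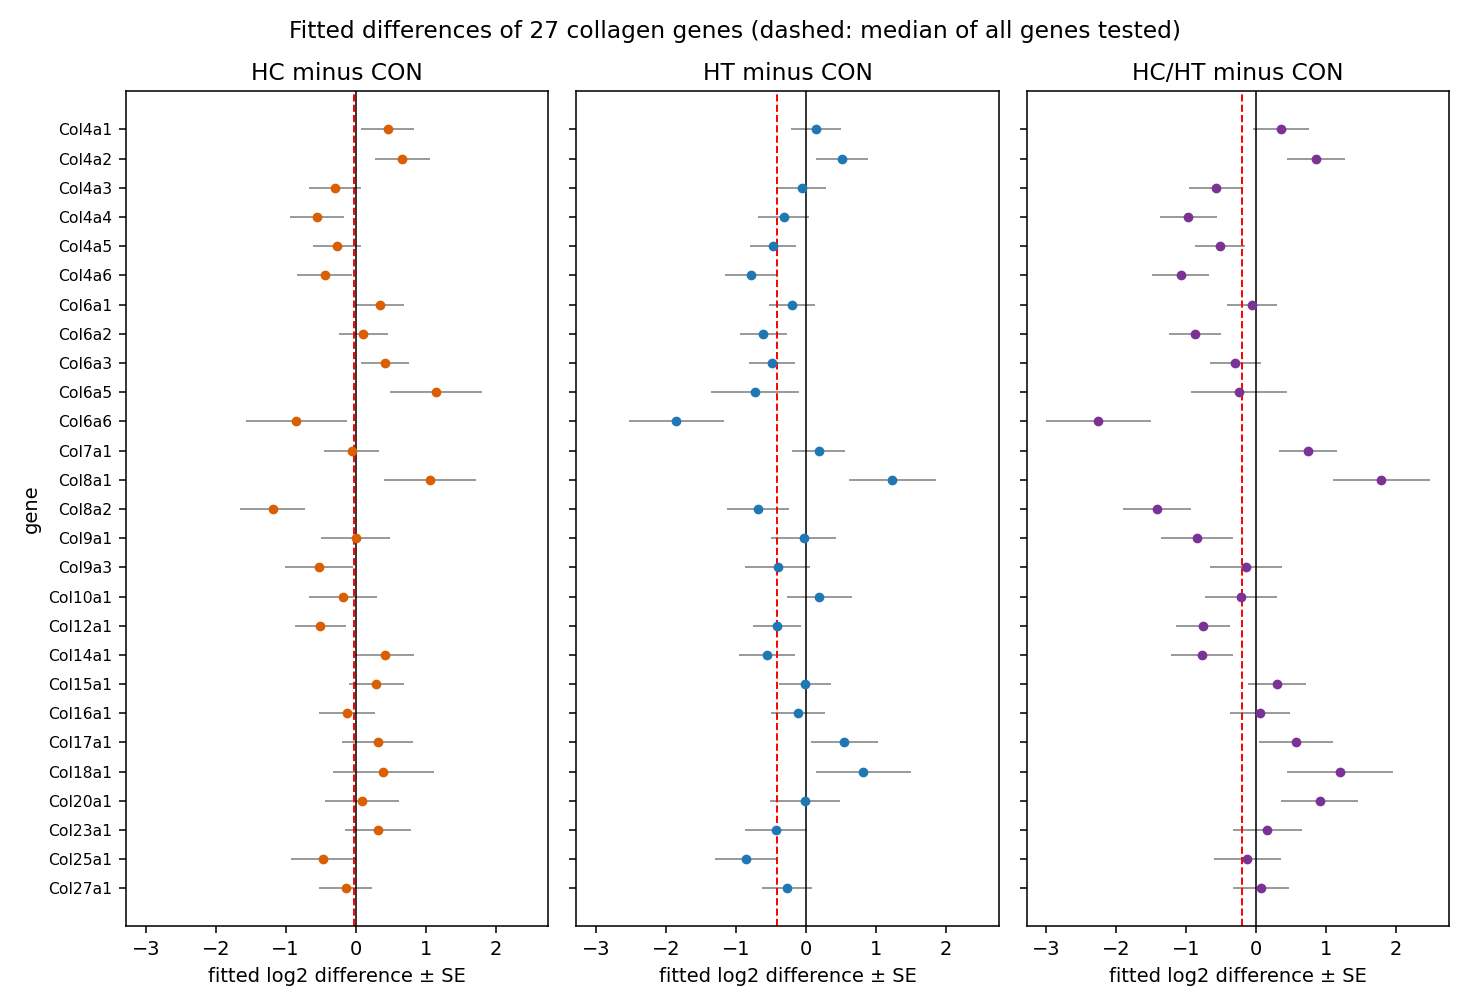
Fitted log2 differences with their SE for the 27 collagen genes tested, in HC, HT and HC/HT, each minus CON. The solid line marks 0 and the dashed line the median of all 15004 genes, -0.02, -0.42 and -0.20; in the HT and HC/HT panels Col8a1 lies farthest to the right and Col6a6 farthest to the left.

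Chains of one molecule varied together from library to library in some pairs. Over the 15 libraries, log2 levels of Col4a1 and Col4a2 had r = 0.83 (permutation p 6e-05, adjusted over 9 pairs 0.00027) and rho = 0.84 (adjusted 0.0009), with r = 0.71 without the 2 libraries farthest from the median and 0.85 within groups. Col4a5 and Col4a6 had r = 0.85 (permutation p 2e-05, the smallest that 100000 permutations give, adjusted 0.00018) and rho = 0.85 (permutation p 1e-04, adjusted 0.0009), 0.82 without 2 libraries and 0.78 within groups. The third head-to-head pair, Col4a3 and Col4a4, had r = 0.47 and rho = 0.39 (permutation p 0.071 and 0.146, adjusted 0.107 and 0.188), 0.41 without 2 libraries and 0.22 within groups. Col6a1 with Col6a2 (r = 0.80, rho = 0.79, 0.73 without 2 libraries, 0.87 within groups) and Col6a3 with Col6a1 (r = 0.84, rho = 0.81, 0.76 and 0.81) had adjusted permutation p of 0.00108 and 0.0003 for r and of 0.0018 and 0.00102 for rho. Col8a1 with Col8a2 had r = 0.01 and rho = -0.15 over all libraries (permutation p 0.955 and 0.594), r = -0.40 without 2 libraries and r = 0.67 within groups. All levels of a library share its scaling. With median-of-ratios factors r was 0.88 for Col4a1 with Col4a2 (adjusted permutation p 0.00594) and 0.65 for Col4a5 with Col4a6 (0.0329), which without 2 libraries were 0.47 and 0.41. On that scale rho was 0.56 and 0.58, with an adjusted permutation p of 0.138 each, so neither pair passed by rank. The type VI pairs then had r of 0.45 and 0.47, with adjusted permutation p of 0.192 each.

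Partners of these collagens were taken from lists of their known functions. Of 20 basement membrane partners (laminins, nidogens, perlecan and others) 18 were tested and 0 passed in any comparison. In HC/HT against CON 7 were positive and 11 negative, with a median of -0.27, where 33.2% of all genes were positive and their median was -0.20. Lama2, the laminin chain of muscle basement membranes, stood at 115 ± 33.9 units in HC, 124 ± 30.8 in HT, 78.5 ± 29.4 in HC/HT and 180.3 ± 46.9 in CON, and all HC/HT libraries lay below CON (log2 difference -1.16 ± 0.37, adjusted p 0.182). Lama5, an endothelial laminin chain, was at 67.8 ± 15.4 units in HC/HT and 42.3 ± 20.8 in CON (0.94 ± 0.42, adjusted p 0.397), and the elastic fibre protein gene Fbln1 at 107 ± 23.5 units in HC/HT and 204 ± 90.8 in CON (-1.03 ± 0.47, adjusted p 0.412).

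Collagen receptors (12 of 13 tested) had 0 calls, with 4 positive and 8 negative in HC/HT against CON, where 33.2% of all genes were positive. Antxr1, an anthrax toxin receptor that binds collagen, stood at 80.7 ± 6.89 units in HC/HT and 159 ± 50.6 in CON (-1.02 ± 0.36, adjusted p 0.247). Collagen folding and secretion genes (15 of 15 tested) also had 0 calls, with 4 positive and 11 negative in that comparison, beside the same 33.2%. The proline hydroxylase gene P3h2, whose product acts on type IV chains, stood at 13.8 ± 5.26 units in HC/HT and 32.5 ± 16.8 in CON (-1.12 ± 0.44, adjusted p 0.316). Collagen cleavage genes (11 of 12 tested) held the only calls among these partner lists. That list also holds Timp1, Timp2 and Timp3, which encode inhibitors of matrix metalloproteinases. Ctsl stood at 218 ± 56.8 units in HC, 46.2 ± 21.1 in HT, 123 ± 21.3 in HC/HT and 67.6 ± 19.1 in CON, and Ctss at 374 ± 166 units in HC, 55.9 ± 59.6 in HT, 229 ± 63.2 in HC/HT and 59.2 ± 13.4 in CON. Averaged over both knockout groups, the cathepsins Ctsl (log2 difference 1.53 ± 0.27, adjusted p 0.00149) and Ctss (2.44 ± 0.50, adjusted p 0.0340) rose. Ctsl was called under all 28 alternatives and Ctss under 18 of 28 (adjusted p up to 0.163). All 11 genes tested, enzymes and inhibitors alike, were positive in this average, where 61.8% of all genes were. Macrophage markers (8 of 8) ranged from 1945 to 3740 units in HC and 1730 to 2550 in HC/HT, against 137 to 1328 in HT and 821 to 1361 in CON, and their part in the cathepsin result was not tested. Among the 9 genes of types I, II, III, V and XI, Col11a1 passed as lower in HC/HT against HT (log2 difference -1.94 ± 0.44, adjusted p 0.0472) and in the knockout average (-1.22 ± 0.32, adjusted p 0.0467). Each of those 2 calls held under 11 of 27 alternatives. Col11a1 stood at 0.39, 0.20 and 1.08 units in HC/HT, near the floor. It averaged 3.31 ± 1.42 units in HC, 5.09 ± 3.06 in HT and 4.29 ± 1.27 in CON, and HC overlapped CON.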

How the data were processed

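RNA-seq of aortic valves was deposited by the authors as 1 table of normalised counts, rounded to whole numbers. Bowtie 1.0.1, FastQC 0.11.2, edgeR, SAMtools 0.1.9 and the mm10 build are listed, per the submitters' processing notes, without their roles. The deposited values are treated as a score, since library totals are nearly equal (10207900 to 10210300) and the depth behind them is unknown, so no counting intervals are given. 1 unnamed column was not used, and HC/HT replicate 4 was not analysed here. Values were multiplied by 0.0979537.

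limma 3.58.1 (R 4.3.3; trended, robust eBayes) was fitted to log2(units + 1) with group and sex terms over 15 libraries, for genes at 1 unit or more in at least 4. Benjamini-Hochberg adjustment ran over 15004 genes, threshold 0.05. Fold changes on this scale understate those of low genes. The script was tested on simulated data. Log ratios of 9 chain pairs were compared by exact permutation (scipy 1.17.1), and correlations with 100000 permutations. Neither was adjusted for sex, although the groups hold unequal numbers of females. Gene models came from GENCODE M21, and 2400 row names matched no symbol. Genes with printed differences were, per comparison, the 5 members with the smallest p, and others where groups or scalings are described. For each partner list, up to 3 genes by smallest p in HC/HT against CON were named, plus those called. The members and lists were chosen with earlier results of these data known. Labels do not say whether replicates were separate animals, so p-values measure the spread between these samples. Scaling, pseudocount, filter, sex term, replicate block, array weights and left-out libraries were varied.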

Additional observations from a re-analysis of the deposited data

Results flagged for a closer look

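Of 90 group values examined in groups of 4, 3 had 1 library far from the other 3 by Dixon's ratio, where chance flags about 1 in 20. Col6a3 stood at 121.8 units in CON replicate 4, against 209, 223 and 201 in the other CON libraries. Col14a1 stood at 22.33 units in HT replicate 3, against 71.0, 59.1 and 64.7. The ratio of Col8a1 to Col8a2 was 3.13 in CON replicate 1, against 3.57, 3.55 and 3.56, a gap that is small beside the distance to all other groups.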

How the results depend on the processing

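Of the 40 differences from the 5 members with the smallest p in each comparison, none changed sign under an alternative that could be fitted. Nor did any of the 12 other differences printed from the fit. The 40 were chosen by their p in the fit reported, which favours stable signs. None of the 40 was called there, so the 1078 of 1099 values that stayed on their side of the threshold stayed uncalled, and the other 21 passed. Other members' signs were compared under the 2 other scalings only. Of all 27 members, 10 changed sign in HT against CON under each scaling. In the hypertension average 6 did with median-of-ratios factors and 7 with quantile normalisation. Genes of the set called in HT against CON numbered 0 in the fit reported and 1 when only the groups compared entered, where calls over all genes numbered 0 and 208 of 15004. In HC/HT against CON they numbered 0, against 2 with only the groups compared, 6 with array weights, and 0 to 1 when 1 library was left out (Col6a6 without HT replicate 4 or HC/HT replicate 3). Calls over all genes there numbered 70 in the fit reported, 151 with only the groups compared, 726 with array weights, 62 without HT replicate 4 and 143 without HC/HT replicate 3. For the hypertension average they numbered 0, against 5 with array weights, and 0 to 2 with 1 library left out (Col6a2 and Col14a1 without HC replicate 4, Col6a6 without HT replicate 4 or HC/HT replicate 3). Calls over all genes there numbered 2 in the fit reported, 2089 with array weights, 519 without HC replicate 4, 22 without HT replicate 4 and 27 without HC/HT replicate 3. The replicate block gave 3 genes of the set (Col14a1, Col4a6 and Col6a2) and 768 of all genes. Deviations of same-numbered libraries had 21 correlations from -0.125 to 0.275 (median 0.0715, 16 positive, 8 over 0.1), and those of other pairs 63 from -0.264 to 0.376 (median -0.0702). Since not every same-numbered pair was over 0.1, the numbers were not taken to pair the samples in the fit reported. That rule cannot decide whether same-numbered libraries share a factor, because a weak shared factor need not bring every pair over 0.1. Pairing was therefore not settled. The median difference of the set in HT against CON was 0.19 with median-of-ratios factors and 0.19 with quantile normalisation, and for the hypertension average 0.030 and 0.062. With median-of-ratios factors r was 0.45 for Col6a1 with Col6a2 and 0.47 for Col6a3 with Col6a1. The cause was not tested. The Col8a1 to Col8a2 log2 ratio in HC/HT against CON ranged from 2.51 to 3.25 over 17 alternatives. Scaling without the 4 most abundant rows and leaving out 3 libraries were chosen after seeing the data. The unknown depth limits all low values.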
